A study of Mus musculus with 6 samples.

Results

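Glucose uptake, glycolysis, the pentose phosphate pathway and the tricarboxylic acid (TCA) cycle were followed through 34 genes chosen by name: 19 of glucose uptake and glycolysis, 5 of the pentose phosphate pathway and 10 of the TCA cycle and malic enzyme. A gene was measured where the platform annotation paired a probe set with its symbol alone, which held for 30 of the 34 genes, among 17097 genes in all. These were 16, 4 and 10 genes of the 3 pathways. Gpi1, Pgam1, Eno1 and G6pdx were not analysed here. Of a gene's probe sets, the one with the highest mean over the 6 arrays stood for the gene, and the others served as a check.

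The samples were splenic CD11c+ dendritic cells, which take up and present antigen, isolated by flow cytometry from C57Bl/6 mice. The 3 wild-type samples and the 3 samples labelled Map3k7 (TAK1) knockout came from mice given tamoxifen for 3 days, so exposure to the drug was common to both groups. The knockout mice carry Map3k7-CreER, a tamoxifen-activated Cre, and the wild-type mice are labelled WT, so the deletion and the Cre cannot be told apart. The labels give no age, do not name the promoter that drives the Cre, and leave unsaid whether each sample is a different animal, and the p-values therefore reflect the spread between these samples, which may be technical. Each sample was read on 1 Affymetrix array, and levels are log2 signals. The median probe set of an array lay between 3.77 and 3.81, so a level near 4 is about that of the middle of the array.

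Glycolysis splits glucose into pyruvate and yields ATP and NADH in the cytosol. The pentose phosphate pathway branches from glucose 6-phosphate and supplies NADPH and ribose for nucleotides, and the TCA cycle oxidises acetyl-CoA in mitochondria and supplies citrate for lipid synthesis. Dendritic cells stimulated through Toll-like receptors are known to raise glucose uptake and glycolysis, and TAK1, the kinase encoded by Map3k7, lies downstream of those receptors. The comparison asked whether the transcripts of these pathways differed in cells without Map3k7.

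Map3k7 itself read 6.68, 6.69 and 6.57 on the wild-type arrays and 4.04, 4.46 and 3.64 on the knockout arrays, a difference of -2.60 (limma, Benjamini-Hochberg adjusted p = 0.00128), so the labels held on every array. Defining transcripts of dendritic cells were bright in both groups. Itgax, which encodes CD11c, averaged 11.16 ± 0.16 and 10.93 ± 0.10 (SD, 3 arrays each), and 0 of 13 dendritic cell markers passed the test on the brightest probe set. The groups were nevertheless apart for 6 of the 13 (46.2%), 4 of them lower in knockout samples and 2 higher. This compares with 21.2% of all genes and 31.0% of genes with a mean of at least 4.5. The lower ones were Cd8a and Xcr1, which mark the cross-presenting subset (-1.47 and -0.81, limma adjusted p = 0.062 and 0.14), Zbtb46, a factor of classical dendritic cells (-0.75, limma adjusted p = 0.0621), and Irf8, a factor of the cross-presenting lineage (-0.59, limma adjusted p = 0.121). Dimmer probe sets passed for Cd8a (-1.44, limma adjusted p = 0.0306) and for Zbtb46 (-0.84 and -0.93, limma adjusted p = 0.048 and 0.0287). The higher ones were Flt3 (0.35) and Dpp4 (0.32). Summed on the linear scale, those markers ranged from 47800 to 54400 in wild-type and from 46500 to 47600 in knockout samples. Of 15 macrophage markers 4 passed as higher, Mrc1 by 2.31, Cd163 by 1.58, Cd5l by 1.51 and Mertk by 1.16. The summed signal of the 15 was 4440 to 4670 in wild-type and 4240 to 6130 in knockout samples. Of the 15 differences 12 were positive, and the 3 negative ones were Adgre1 (-0.28), Cd68 (-0.19) and Timd4 (-0.03). All 7 erythroid differences were negative, and 1 passed, Hbb-b2 at -3.01 (1350 to 3180 and 488 to 838). Hba-a1 stood at -3.57 (limma adjusted p = 0.0713), and its second brightest probe set passed at -4.0 (limma adjusted p = 0.0352). Over all genes 1.08% passed as higher and 0.591% as lower. All 13 proliferation genes had negative differences with a median of -0.87, of which 1 passed, Mcm2 at -1.51 (9450 to 11100 and 6130 to 8340). Of 11 neutrophil and monocyte markers 0 passed (441 to 710 and 725 to 1980), but 9 differences were positive and 2 negative. The largest were those of S100a8 (2.28, limma adjusted p = 0.147) and S100a9 (1.53, limma adjusted p = 0.343). In that list 5 genes (45.5%) had an unadjusted limma p under 0.05, all higher, against 16.4% of all genes. None passed of 7 B cell (505 to 644 and 409 to 469) or 8 T and NK cell markers (325 to 343 and 218 to 261). Of the B cell differences 5 were negative and 2 positive. All 8 T and NK cell differences were negative, with a median of -0.18. The lowest was that of Cd4, at -0.97 with groups apart (limma adjusted p = 0.0535). It was the 1 gene of the 8 (12.5%) with an unadjusted limma p under 0.05. The erythroid gene Alas2, at 3.45 and 3.21, and the B cell gene Cd79a, at 3.79 in both groups, were near the level of the median probe set. Other genes of those lists were brighter, with Hba-a1 at 9.88 and 6.31 and Ms4a1 at 8.6 and 8.1 in wild-type and knockout samples. The part of these shifts in the values below was not tested, and in bulk samples fewer cells of a type and less RNA per cell cannot be told apart.

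The arrays of a group were not equal in these pathways. Knockout replicate 3 was the lowest of the 6 arrays for 16 of the 30 members (53.3%), and for 24.7% of all genes. On that array the median member of the pentose phosphate list lay 0.27 below its mean over the 6 arrays and the median TCA cycle member 0.20 below, against 0.03 for the median of all genes. Knockout replicate 1 was the lowest for 1 member. Its proliferation genes lay 0.07 above their means, whereas those of knockout replicates 2 and 3 lay 0.72 and 0.77 below.

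**Figure D1:**
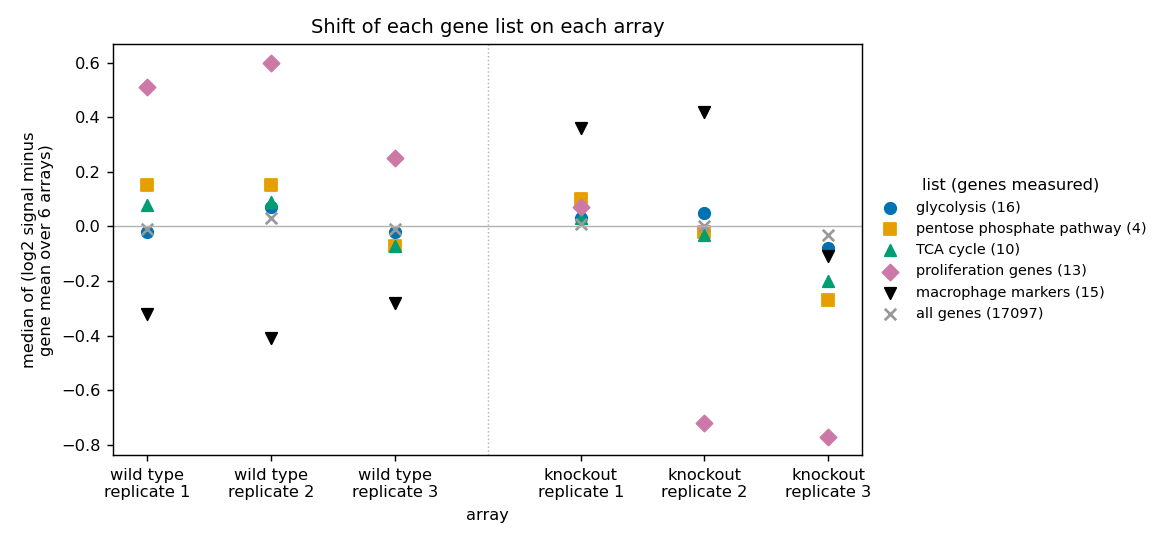
Shift of gene lists on each array. The vertical axis is the median, over the genes of a list, of the log2 signal minus the gene's mean over the 6 arrays, and each point is 1 list on 1 array. The 3 metabolic lists stay between -0.27 and 0.15, with their lowest values on knockout replicate 3, while proliferation genes run from 0.60 to -0.77 and macrophage markers from -0.41 to 0.42.

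The 30 measured members of these 3 pathways showed no change that passed the test across the array. Slc2a6, Pfkfb4 and Eno3, glycolysis genes outside the member list, did pass and are described below. Of the 30 members 0 were higher and 0 lower at an adjusted p under 0.05 (limma, Benjamini-Hochberg over 45037 probe sets), whereas 1.67% of all 17097 genes passed, 1.08% as higher and 0.591% as lower. The smallest adjusted p of any member was 0.06, for Hk3. None of the 59 probe sets of the members passed. At an unadjusted p under 0.05, 10 of the 30 members differed, 3 higher and 7 lower, or 33.3%, against 16.4% of all genes and 28.2% of the 8150 genes with a mean level of at least 4.5. The knockout and wild-type arrays did not overlap for 12 members, or 40%, against 21.2% of all genes and 31.0% of the genes with a mean of at least 4.5. Of these 12 members 4 were higher and 8 lower in knockout samples, while each direction held 10.6% of all genes. The median difference was -0.07 for glycolysis, -0.13 for the pentose phosphate pathway and -0.18 for the TCA cycle, beside -0.02 for all genes. Without knockout replicate 3 these medians were -0.003, -0.023 and -0.11.

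The precision differed between members. The 95% interval of a difference, not adjusted for the number of genes, extended from 0.20 to 0.70 to either side, with a median of 0.31. For 25 of the 30 members it lay within 1 log2 unit of 0, which bounds the difference to under 2-fold at that level, and for 13 members within 0.5. The 5 intervals that reached 1 log2 unit belonged to Slc2a1, Slc2a3, Hk3, Pfkfb3 and Idh1. Slc16a3 and Me1 had means under 4.5 in both groups, near the level of the median probe set, where a fold change is understated.

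**Figure D2:**
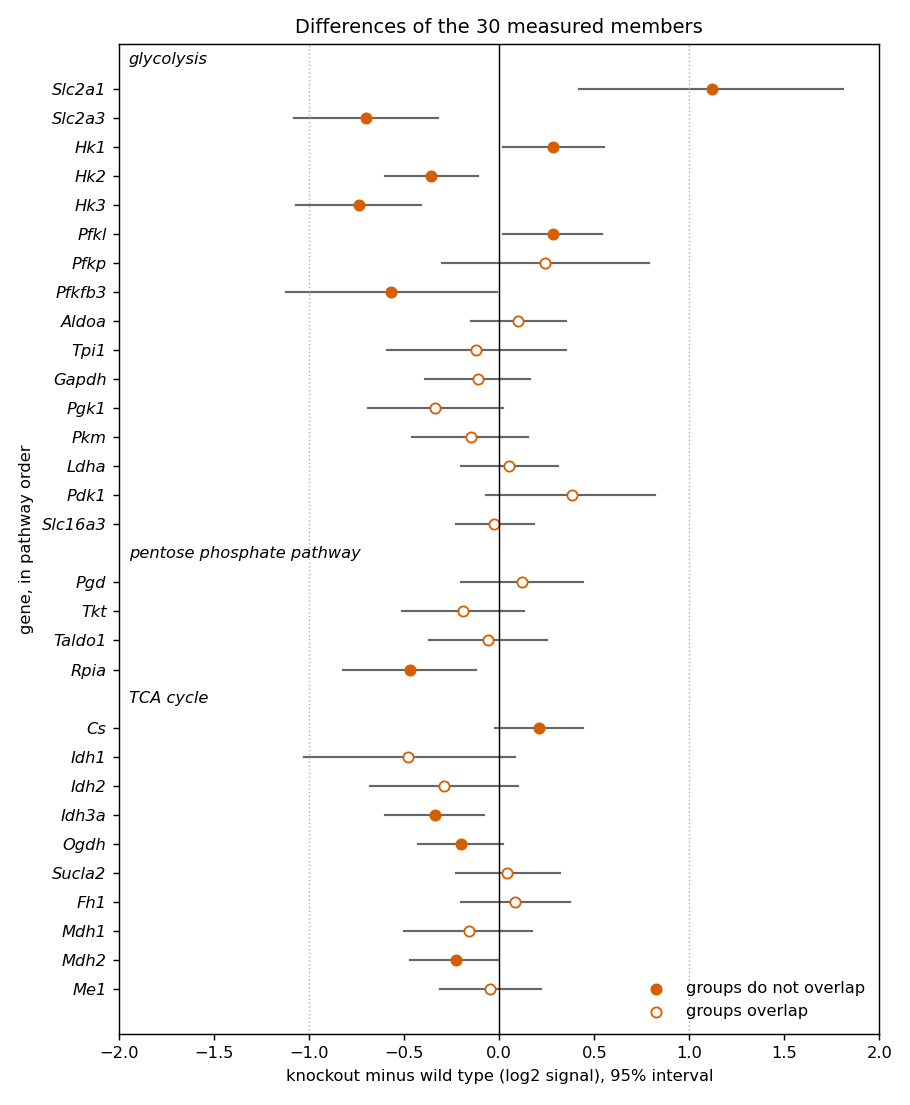
Difference of each measured member, knockout minus wild type, in log2 signal on the horizontal axis, with its unadjusted 95% interval from limma (3 arrays a group). Filled points mark the 12 genes whose groups do not overlap, and dotted lines mark 1 log2 unit; Slc2a1 lies farthest to the right at 1.12, and Hk3 and Slc2a3 farthest to the left at -0.74 and -0.70.

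Glucose enters the cell through transporters of the SLC2A family, and their transcripts leaned in opposite directions. Slc2a1, which encodes the widely expressed transporter GLUT1, read 6.93, 6.47 and 7.36 on the wild-type arrays and 7.44, 8.17 and 8.5 on the knockout arrays. Every knockout array lay above every wild-type array, by a narrow margin for knockout replicate 1. The difference of 1.12 (SE 0.30, 2.17-fold, interval 0.42 to 1.81) was the largest of any member, with limma adjusted p = 0.154. Its other probe set stood at 0.94 (adjusted p = 0.297), with groups that overlapped. Without knockout replicate 1 the difference was 1.41 and passed (limma adjusted p = 0.0477).

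Slc2a3, which encodes the high-affinity transporter GLUT3, read 9.69, 9.63 and 9.93 on the wild-type arrays and 9.38, 9.0 and 8.77 on the knockout arrays. All knockout arrays were the lower ones, and the difference was -0.70 (SE 0.16, limma adjusted p = 0.107). The second brightest probe set stood at -0.76 (adjusted p = 0.0665), and the other two, both dim, at -0.14 and 0.05. The 2 bright probe sets carry the suffix s and x and may pick up more than 1 transcript, and with such probe sets dropped the difference was -0.14 (limma adjusted p = 0.779). Without knockout replicate 1 the difference was -0.86 and passed (limma adjusted p = 0.0337). For both transporters knockout replicate 1 was the knockout array nearest to the wild-type samples, as it was for the proliferation genes.

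Of 22 other glycolysis genes measured, 1 rose and 2 fell, while 1.08% of all genes passed as higher and 0.591% as lower. One that fell was Slc2a6, a transporter of the same family found on internal membranes. It read 5.30, 5.35 and 5.84 on the wild-type arrays and 4.42, 4.64 and 4.36 on the knockout arrays, a fall of 1.02 on the log2 scale (SE 0.16, 2.03-fold lower, limma adjusted p = 0.0301). With 1 array left out it passed only without wild-type replicate 3 (-0.85, adjusted p = 0.0344), and the other 5 fits gave differences between -1.12 and -0.96 with limma adjusted p between 0.0577 and 0.096. Slc2a8, an intracellular transporter named here after its values were seen, averaged 4.76 ± 0.15 and 5.29 ± 0.08 (SD, 3 arrays each), with groups apart and a difference of 0.53 that did not pass (limma adjusted p = 0.0706).

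Hexokinases phosphorylate glucose and so trap it in the cell, and the 3 isoenzymes did not share a direction. Hk3, an isoenzyme typical of myeloid cells that lacks the mitochondrial anchor of the others, read 6.44, 6.82 and 6.58 on the wild-type arrays and 5.78, 6.11 and 5.74 on the knockout arrays. Its groups were apart, and the difference was -0.74 (SE 0.14, 1.67-fold lower in knockout samples, interval -1.07 to -0.41, limma adjusted p = 0.06). Hk2, the inducible isoenzyme, read 8.96, 8.89 and 8.99 in wild-type and 8.53, 8.49 and 8.76 in knockout samples, again with groups apart and a smaller difference of -0.36 (SE 0.10, limma adjusted p = 0.191). Hk1, the constitutive isoenzyme, stood the other way at 0.28 (SE 0.12, limma adjusted p = 0.362), from 7.06, 7.39 and 7.32 to 7.61, 7.45 and 7.57. Adpgk, which phosphorylates glucose with ADP in place of ATP and was named after its values were seen, stood at 0.53 on its brighter probe set (limma adjusted p = 0.167) and at 0.43 on the other.

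**Figure D3:**
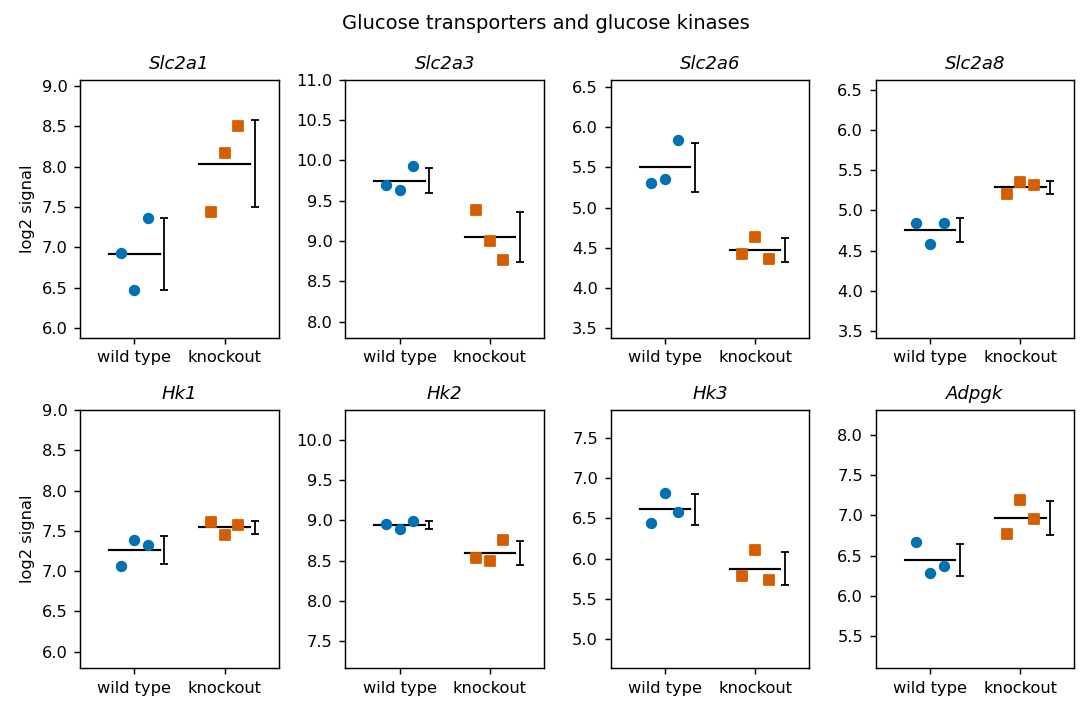
Log2 signal of 4 glucose transporters and 4 glucose kinases on the wild-type arrays (circles) and knockout arrays (squares), 3 each, with the mean as a line and the SD as a bar; each vertical axis spans the same range. The groups are apart in all 8 panels, as for 21.2% of all genes and 31.0% of those with a mean of at least 4.5. Slc2a8 and Adpgk were picked after their values were seen. Of the dim genes not shown, Slc2a2 and Hkdc1 overlapped and Slc2a4 was apart. Knockout is higher for Slc2a1, Slc2a8, Hk1 and Adpgk and lower for Slc2a3, Slc2a6, Hk2 and Hk3, of which Slc2a6 passed the test.

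The promoters of Slc2a1, Hk2 and Hk3 are shown because their groups were apart in opposite directions while each holds the same short motif. The sequences are the 250 bases before the transcript start, from RefSeq on GRCm38.p6, 5′ to 3′ on the strand of the gene: chr4:119108495-119108744 on the plus strand for Slc2a1, chr6:82774455-82774704 on the minus strand for Hk2 and chr13:55021386-55021635 on the minus strand for Hk3. Capitals mark ACGTG, or CACGT where it lies on the other strand, a core recognised by the hypoxia-inducible factors and, within longer sites, by other factors.
Slc2a1: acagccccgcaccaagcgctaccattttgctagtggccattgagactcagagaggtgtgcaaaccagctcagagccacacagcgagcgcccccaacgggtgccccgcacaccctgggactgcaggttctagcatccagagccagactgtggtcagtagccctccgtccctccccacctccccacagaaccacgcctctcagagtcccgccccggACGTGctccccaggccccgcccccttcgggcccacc
Hk2: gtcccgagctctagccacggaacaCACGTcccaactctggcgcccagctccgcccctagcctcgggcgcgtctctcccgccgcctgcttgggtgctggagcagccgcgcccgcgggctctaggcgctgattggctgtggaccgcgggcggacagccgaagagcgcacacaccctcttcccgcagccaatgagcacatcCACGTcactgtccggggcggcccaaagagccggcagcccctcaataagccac
Hk3: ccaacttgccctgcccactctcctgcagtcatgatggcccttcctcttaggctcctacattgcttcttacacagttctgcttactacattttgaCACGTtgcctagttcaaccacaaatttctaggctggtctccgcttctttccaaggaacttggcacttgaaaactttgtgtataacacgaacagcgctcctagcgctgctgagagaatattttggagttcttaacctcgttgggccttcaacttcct
The match begins at position -36 in Slc2a1 and -156 in Hk3, and the 2 matches of Hk2 begin at -226 and -52, where -1 is the last base before the start. The 2 windows of Hk1 in the same table hold 0 matches of ACGTG, while 1 of them holds GCGTG (or CACGC), the other form of the hypoxia-inducible factor core. That form occurred in 20 of 32 listed genes (62.5%), against 30.9% of all genes. Slc2a3 and Idh3a have no entry. Over the 32 listed genes in the table, measured or not, 13 (40.6%) had a match of ACGTG in at least 1 window, against 18.5% of 27025 genes. Counted as windows, these were 20 of 49 (40.8%) against 16.6%. Member windows also held more G and C, with a median of 60.8% against 52.4%, and the part of base composition in the match counts was not tested. Among measured genes a match occurred in Slc2a1, Aldoa and Ldha, whose differences were positive, and in Hk2, Hk3, Pfkfb3, Pgk1, Pkm, Slc16a3, Mdh1, Me1 and Ogdh, whose differences were negative. A match says only that these letters are present.

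Phosphofructokinase commits sugar to glycolysis, and its transcripts differed little. Pfkl, the liver-type subunit, read 5.66, 5.95 and 5.72 in wild-type and 6.09, 6.13 and 5.95 in knockout samples, a difference of 0.28 (SE 0.11, limma adjusted p = 0.349) with groups that only just separated. Pfkp, the platelet-type subunit, read 8.71, 9.24 and 9.73 on the knockout arrays, a span wider than that of the wild-type arrays, so that its difference of 0.24 had a standard error of 0.24. The regulators of this step, which make or remove fructose 2,6-bisphosphate, leaned apart. Pfkfb3, the isoenzyme known to drive glycolysis, read 9.18, 9.04 and 9.96 in wild-type and 8.99, 8.57 and 8.93 in knockout samples, a difference of -0.57 (SE 0.24, limma adjusted p = 0.391). With wild-type replicate 3, its highest array, left out, the difference was -0.28. Pfkfb4 rose from 4.79, 4.67 and 4.65 to 5.43, 5.55 and 5.69, by 0.86 (SE 0.10, 1.81-fold, limma adjusted p = 0.0112). Of 6 fits that each dropped 1 array it passed in 4, but not when the dropped array was wild-type replicate 2 (0.84, limma adjusted p = 0.0567) or, in the knockout group, replicate 2 (0.86, limma adjusted p = 0.0733).

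The measured members from aldolase to lactate dehydrogenase, apart from Pgk1, had differences near 0, though the interval of Tpi1 reached from -0.59 to 0.35. Aldoa (aldolase), Tpi1 (triose phosphate isomerase), Gapdh (the dehydrogenase often used as a reference gene), Pkm (pyruvate kinase) and Ldha (lactate dehydrogenase) had differences of 0.10, -0.12, -0.11, -0.15 and 0.05, with overlapping groups and limma adjusted p between 0.736 and 0.914. Gapdh read 12.35, 12.59 and 12.46 in wild-type and 12.49, 12.40 and 12.16 in knockout samples, an interval of -0.39 to 0.16. Ldha read 11.58, 11.71 and 11.38 and then 11.54, 11.64 and 11.65, an interval of -0.20 to 0.31. The signs of Tpi1, Pkm and Ldha turned when both arrays numbered 3 were left out. Pgk1 (phosphoglycerate kinase) stood lower, at 10.84 ± 0.20 and 10.50 ± 0.24 (SD, 3 arrays each), a difference of -0.34 with overlapping groups (SE 0.15, limma adjusted p = 0.438), and its second probe set stood at -0.29. The brightest probe sets of Aldoa, Tpi1, Gapdh and 5 other members carry the suffix x or s and may pick up more than 1 transcript, so near-identical copies of these genes may share the signal.

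Among the 22 other glycolysis genes the lowest difference was that of the enolase isoform Eno3, while Eno1 was not analysed here. Eno3, known as the muscle enolase, read 9.92, 10.06 and 10.01 on the wild-type arrays and 9.04, 8.28 and 8.08 on the knockout arrays. It fell by 1.53 (SE 0.23, 2.89-fold lower, interval -2.05 to -1.01, limma adjusted p = 0.0252). The wild-type arrays lay within a SD of 0.07, and knockout replicate 1 was again the knockout array nearest to them. With 1 array left out it passed when knockout replicate 1 (-1.82, adjusted p = 0.00187) or knockout replicate 3 was dropped (-1.34, adjusted p = 0.0485), and in the other 4 fits the difference ran from -1.57 to -1.44 with limma adjusted p between 0.0664 and 0.13. The neuronal enolase Eno2 was dim, at 4.38 ± 0.24 and 3.92 ± 0.09 (SD, 3 arrays each).

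At the exit from glycolysis, Slc16a3, the lactate exporter MCT4, read from 3.63 to 3.75 on the 6 arrays, at the level of the median probe set. Pdk1, a kinase that inhibits pyruvate dehydrogenase and so keeps pyruvate from mitochondria, read 7.30, 7.13 and 6.65 in wild-type and 7.44, 7.64 and 7.14 in knockout samples. Its groups overlapped, and all 3 of its probe sets had positive differences, of 0.38, 0.32 and 0.20 (limma adjusted p between 0.44 and 0.768). Of 10 genes measured for pyruvate dehydrogenase, its regulators and the pyruvate carrier, 0 passed, with a median of -0.02. The 10 included 2 with an unadjusted p under 0.05, against 16.4% of all genes and 28.2% of genes with a mean of at least 4.5. Those 2 were Pdha1, the catalytic subunit (0.26, limma adjusted p = 0.357), and Pdk2, another inhibitory kinase, below the level of the median probe set (0.20, limma adjusted p = 0.383).

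In the pentose phosphate pathway the member farthest from 0 was Rpia, the isomerase that makes ribose 5-phosphate. It read 8.96, 9.17 and 8.77 in wild-type and 8.74, 8.46 and 8.28 in knockout samples. All knockout arrays were lower, the nearest by a narrow margin, and the difference was -0.47 (SE 0.15, interval -0.82 to -0.12, limma adjusted p = 0.227). Pgd, the second NADPH-producing enzyme, stood at 0.12, and the enzymes that return sugars to glycolysis, Tkt (transketolase) and Taldo1 (transaldolase), stood at -0.19 and -0.06, all with overlapping groups and limma adjusted p between 0.68 and 0.921. Taldo1 averaged 11.95 ± 0.22 and 11.89 ± 0.13 (SD, 3 arrays each). Of 8 other pentose phosphate genes 0 passed, and 7 of the 8 differences were positive (median 0.13). An unadjusted p under 0.05 held for 1 of the 8 (12.5%, against 16.4% of all genes). The smallest p-values among them belonged to H6pd, which makes NADPH inside the endoplasmic reticulum (0.46, limma adjusted p = 0.212), and Prps1, which turns ribose 5-phosphate into the precursor of nucleotides (0.19, limma adjusted p = 0.577).

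In the TCA cycle 7 of 10 differences were negative and 0 passed. Idh3a, the catalytic subunit of the NAD-dependent isocitrate dehydrogenase, read 9.29, 9.17 and 8.98 in wild-type and 8.88, 8.84 and 8.70 in knockout samples, with groups apart and a difference of -0.34 (SE 0.11, limma adjusted p = 0.247). All 3 of its probe sets stood lower, with differences of -0.34, -0.30 and -0.17. The mitochondrial malate dehydrogenase Mdh2 read 12.84, 12.82 and 12.65 and then 12.61, 12.56 and 12.44, groups that barely separated, with a difference of -0.23 (SE 0.10, limma adjusted p = 0.404) on 1 probe set and -0.32 on the other. Ogdh, a subunit of the oxoglutarate dehydrogenase complex, was apart as well at -0.20 (SE 0.10, limma adjusted p = 0.459).

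Cs, citrate synthase, which opens the cycle, was the member of the cycle whose groups were apart with knockout samples higher. It read 10.90, 10.91 and 10.74 in wild-type and 11.11, 11.12 and 10.95 in knockout samples, a difference of 0.21 (SE 0.10, limma adjusted p = 0.459), but its other 2 probe sets stood at 0.11 and -0.05. Idh1, the cytosolic NADPH-producing isocitrate dehydrogenase, had the lowest difference of the cycle at -0.48 (SE 0.24, limma adjusted p = 0.496) from arrays spread over 8.12, 7.64 and 7.18 in the knockout group. Without knockout replicate 3 it was -0.24. Its mitochondrial counterpart Idh2 stood at -0.29 (SE 0.17) and the cytosolic malate dehydrogenase Mdh1 at -0.16 (SE 0.15). Fh1 (fumarase) and Sucla2 (a subunit of succinyl-CoA ligase) stood at 0.08 and 0.04, with intervals of -0.20 to 0.37 and -0.23 to 0.32. Me1, the cytosolic malic enzyme, read from 3.46 to 3.82, at the level of the median probe set.

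Among 17 other TCA cycle and anaplerotic genes 0 passed and the median was -0.02. An unadjusted p under 0.05 held for 1 of the 17 (5.88%, against 16.4% of all genes). The smallest p-values belonged to Sdha, the flavoprotein of succinate dehydrogenase (0.25, limma adjusted p = 0.293), and Suclg2, another subunit of succinyl-CoA ligase (-0.31, limma adjusted p = 0.483). Acod1, which diverts the cycle to itaconate in activated macrophages, averaged 3.78 ± 0.07 and 3.78 ± 0.25 (SD, 3 arrays each), at the level of the median probe set in both groups.

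Of 16 regulators of glycolytic transcription 3 rose and 0 fell, beside 1.08% of all genes that passed as higher and 0.591% as lower. Mlxip, a glucose-sensing transcription factor, read 7.0, 7.08 and 7.14 in wild-type and 7.95, 8.0 and 8.55 in knockout samples, a rise of 1.09 (SE 0.16, 2.13-fold, limma adjusted p = 0.0271). Egln2, an oxygen-sensing prolyl hydroxylase that marks hypoxia-inducible factors for degradation, read 7.63, 7.43 and 7.50 and then 8.32, 8.49 and 8.90, a rise of 1.05 (SE 0.15, 2.08-fold, limma adjusted p = 0.0239). Both were apart by more than the spread within either group. Ppargc1b, a coactivator of mitochondrial genes, rose by 0.61 (SE 0.09, limma adjusted p = 0.0211) from 3.30 ± 0.04 to 3.91 ± 0.03 (SD, 3 arrays each), a level near that of the median probe set. With 1 array left out, Mlxip and Egln2 passed when knockout replicate 1 was dropped (1.2 and 1.18, adjusted p = 0.024 and 0.0156) and when knockout replicate 3 was (0.90 and 0.89, adjusted p = 0.019 and 0.0293). In the other 4 fits Mlxip ran from 1.05 to 1.18 and Egln2 from 1.01 to 1.11, with limma adjusted p between 0.063 and 0.121. Ppargc1b passed without knockout replicate 1 (0.63, adjusted p = 0.0359) and missed in the other 5 (0.59 to 0.63, adjusted p between 0.0582 and 0.107).

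Txnip, an inhibitor of glucose uptake and a known target of Mlxip, named here after its values were seen, read 8.53, 8.65 and 8.75 in wild-type and 9.12, 8.94 and 9.25 in knockout samples. Its groups were apart, with a difference of 0.46 on the brighter probe set (SE 0.11, limma adjusted p = 0.125), and its other probe set rose by 0.62 (SE 0.11, limma adjusted p = 0.0432). Hif1a, the oxygen-regulated subunit of hypoxia-inducible factor 1, averaged 9.71 ± 0.16 and 10.01 ± 0.15 (SD, 3 arrays each), and Myc stood at -0.29 (limma adjusted p = 0.666). Of 12 targets of hypoxia-inducible factor 1 outside glycolysis 0 passed, and the median of the 12 was 0.05. An unadjusted p under 0.05 held for 2 (16.7%, against 16.4% of all genes). Those 2 were Bnip3 (0.53, limma adjusted p = 0.116) and Bnip3l (0.32, limma adjusted p = 0.248), which mark mitochondria for removal.

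**Figure D4:**
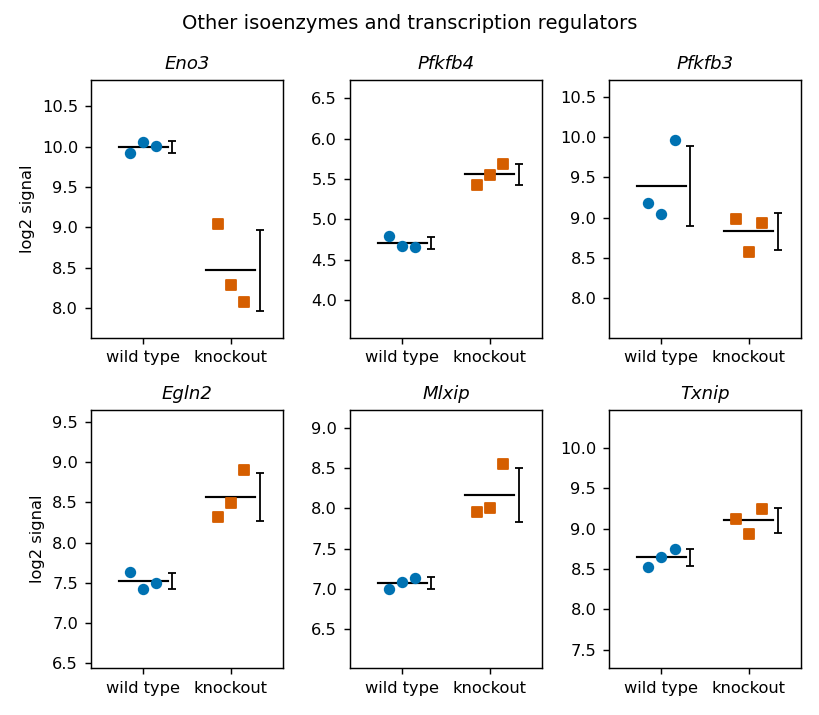
Log2 signal of Eno3, Pfkfb4, Pfkfb3, Egln2, Mlxip and Txnip on the 3 wild-type arrays (circles) and 3 knockout arrays (squares), with the mean as a line and the SD as a bar; each vertical axis spans the same range. Eno3 fell by 1.53, Pfkfb4 rose by 0.86, Egln2 by 1.05 and Mlxip by 1.09, while Pfkfb3 and Txnip did not pass on the probe set shown.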

How the data were processed

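Biotin-labelled cRNA, made from 100 ng of RNA a sample, was hybridised to Affymetrix 3' arrays. The deposited values are log2 signals that the authors made with RMA; the submitters' processing notes name Affymetrix Expression Console 1.1. RMA corrects background, equalises the distribution of all arrays and summarises probe sets, and it leaves no detection call or depth, so the number of arrays limits the precision. The log2 scale was read from the values. Probe sets were named through the platform annotation (28898 of 45037 tested had 1 symbol, 551 several, 15588 none; 104 Affymetrix controls were left out), and 28689 were matched to the RefSeq gene table by Entrez ID. Identical values were found in 0 pairs of arrays.

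Differences (knockout minus wild type) were fitted with limma 3.58.1 in R 4.3.3 (lmFit, eBayes, no covariates) and adjusted by Benjamini-Hochberg over all 45037 probe sets, threshold 0.05. With 3 against 3 arrays an exact permutation test cannot go below p = 0.1, so none was used. The fit was tested on simulated data. Members and lists were chosen with earlier results of these data known. All members were named, from each list of other metabolic genes and regulators those past the threshold or, with none, the 2 with the smallest p, and from each marker list those past the threshold. Itgax, the other markers named that did not pass on the brightest probe set, Slc2a8, Adpgk, Eno2, Acod1, Hif1a, Myc, Txnip and the genes under other observations were chosen after their values were seen. Alternatives were a filter on dim probe sets, dropping probe sets with suffix x or s, further centring or quantile normalization, other summaries of a gene, other variance models, array weights, a replicate block, stricter and looser thresholds and leaving out each array. A fit without both arrays numbered 3 and the 2 lists under other observations were chosen after seeing the data. Figures were drawn with matplotlib 3.10.9.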

Additional observations from a re-analysis of the deposited data

How the results depend on the processing

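Over 19 alternatives the counts of members past the threshold stayed at 0 higher and 0 lower in the pentose phosphate pathway and the TCA cycle. In glycolysis 1 member was lower with the replicate number as a block (Hk3, -0.74, limma adjusted p = 0.0211) and at an adjusted p under 0.10 (1, Hk3). With 1 array left out the counts ran from 0 to 1 higher and from 0 to 1 lower, the exceptions being Slc2a1 and Slc2a3 without knockout replicate 1. Over the alternatives that kept the threshold at 0.05, the number of genes past it moved from 285 to between 61 and 542. The data did not settle whether samples with the same number were paired. The correlations of their deviations from the group means were 0.0542, 0.133 and 0.322, and the last, for the arrays numbered 3, was the highest of any pair. Wild-type replicate 1 correlated best with knockout replicate 2 (0.0737), and wild-type replicate 2 with knockout replicate 1 (0.22). The blocked fit called 768 probe sets, against 538, and Hk3 was the 1 member whose call it changed.

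Dropping 1 array at a time moved the glycolysis median between -0.119 and -0.003 (the latter without knockout replicate 3) and it was -0.003 without both arrays numbered 3. Of the 30 members 20 kept their sign in every alternative. The other 10 changed sign in at least 1 of them. Without both arrays numbered 3 the differences were -0.077 for Pfkp, 0.018 for Tpi1, 0.025 for Pkm, -0.052 for Ldha, 0.023 for Slc16a3, -0.051 for Sucla2 and 0.070 for Me1. With array weights Sucla2 stood at -0.004 and Me1 at 0.016, on the second brightest probe set at -0.035 and 0.077, and Me1 at 0.016 on the mean of its probe sets. With 1 array left out the ranges were -0.008 to 0.502 for Pfkp, -0.248 to 0.117 for Tpi1, -0.033 to 0.131 for Ldha, -0.054 to 0.002 for Slc16a3, -0.013 to 0.235 for Pgd, -0.183 to 0.032 for Taldo1, -0.074 to 0.118 for Sucla2, -0.005 to 0.172 for Fh1 and -0.137 to 0.045 for Me1. The cause was not tested.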

Other observations

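Neighbouring branches of sugar and amino acid metabolism were added after seeing the data and are described without a test of the lists. Phgdh, the enzyme that takes 3-phosphoglycerate from glycolysis into serine, read 5.66, 6.15 and 5.79 on the wild-type arrays and 7.46, 7.61 and 7.49 on the knockout arrays, a rise of 1.65 (SE 0.14, 3.14-fold, limma adjusted p = 0.0026). Its other probe set rose by 1.90 (limma adjusted p = 0.0056), and both carry a suffix, x or s, of probe sets that may pick up more than 1 transcript. The next enzymes of that route did not pass, with Psat1 at -0.66 (limma adjusted p = 0.429) and Psph at 0.06 (limma adjusted p = 0.92). Phgdh was the 1 of 13 serine, one-carbon and glutamine genes that passed, while 1.67% of all genes passed. An unadjusted limma p under 0.05 held for 3 of the 13 (23.1%), against 16.4% of all genes and 28.2% of genes with a mean of at least 4.5. Shmt1, which passes a carbon from serine to folate, stood at -0.50 (limma adjusted p = 0.0507). Of its 3 dimmer probe sets 1 fell by 0.94 (limma adjusted p = 0.035). The list had a median of -0.08.

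Of 23 genes of glycogen, sugar nucleotides and glycerol phosphate 0 passed, with a median of -0.02. An unadjusted p under 0.05 (limma) held for 8 of them (34.8%). The share was 16.4% of all genes and 28.2% of genes with a mean of at least 4.5. Gfpt1, the first enzyme of the hexosamine route, read 10.29, 10.20 and 10.43 in wild-type and 9.84, 9.54 and 9.42 in knockout samples, groups that were apart. They differed by -0.71 (SE 0.13) with limma adjusted p = 0.0523, while its second brightest probe set fell by 0.93 (limma adjusted p = 0.0112). Gnpnat1, a later enzyme of the same route, stood at -0.59 (limma adjusted p = 0.0777). Khk, which phosphorylates fructose, stood at 0.61 (limma adjusted p = 0.0687).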
